A study of Rattus norvegicus with 4 samples.

Results

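The 40 genes described here act in mitosis, the stage of the cell cycle in which duplicated chromosomes are pulled apart and the cell divides. They were taken as a list by gene symbol, by a rule that holds no measured value, though with earlier results of these data known. Of the 40, 35 were measured through 51 probes whose RefSeq accession gave the symbol, out of 16579 genes measured in all. Top2a, Cdc25c, Plk4, Cenpe and Anln were not analysed here. NR8383 cells, an alveolar macrophage line established by lung lavage of a normal rat, received 6.8 cm2 of COOH-functionalized carbon nanotubes (the material NRCWE042) per cm2 for 4 h. The study set such cultures against cultures without nanotubes, with 4 biological replicates in each condition. The 4 exposed cultures, replicates 1 to 4, form the single group used here, and the cultures without nanotubes were not analysed here. All 4 came from the same line after 20 passages, had been seeded for 48 h, and grew as a mix of adherent and floating cells. Nothing below is therefore an effect of the nanotubes: the values give which mitotic genes were measured in exposed cells and how closely 4 exposed cultures matched.

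Entry into mitosis is driven by the kinase Cdk1 bound to A- and B-type cyclins, with the Polo and Aurora kinases acting beside it. The spindle checkpoint then holds the anaphase-promoting complex, a ubiquitin ligase, inactive until every chromosome is attached to spindle microtubules, after which its activator Cdc20 lets it mark securin and B-type cyclins for destruction. Most of these genes are transcribed late in the cycle, in G2 and M phase, so their messenger RNA marks dividing cells. Macrophages in tissue divide slowly, whereas NR8383 is a continuously growing line.

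Many late cell cycle promoters hold CCAAT boxes, bound by the factor NF-Y, and near the start a CHR element, read TTTGAA or TTCGAA, through which the DREAM and MuvB complexes repress the gene in quiescent cells and activate it in G2. The 250 bases before the start site, from the RefSeq table of the rat assembly GRCr8, were searched on both strands for these letters. Such a window was at hand for 34 of the 40 genes; it was not at hand for Ccna2, Aurkb, Ube2c, Incenp, Tpx2 and Foxm1. Windows of 5 genes are printed, 4 because their genes carry both letter strings and stand for entry (Cdk1, Ccnb2) and exit (Cdc20, Pttg1), and that of Nuf2 because it carries neither. The windows are chr20:19265043-19265292 on the plus strand for Cdk1, chr8:79981659-79981908 on the minus strand for Ccnb2, chr5:137255800-137256049 on the minus strand for Cdc20, chr10:28406327-28406576 on the minus strand for Pttg1 and chr13:84255599-84255848 on the minus strand for Nuf2. Capitals mark the CCAAT box, which appears as ATTGG where it lies on the opposite strand. They also mark the CHR letters TTTGAA, which appear as TTCAAA where they lie on the opposite strand. Each window reads 5′ to 3′ towards the start.
Cdk1: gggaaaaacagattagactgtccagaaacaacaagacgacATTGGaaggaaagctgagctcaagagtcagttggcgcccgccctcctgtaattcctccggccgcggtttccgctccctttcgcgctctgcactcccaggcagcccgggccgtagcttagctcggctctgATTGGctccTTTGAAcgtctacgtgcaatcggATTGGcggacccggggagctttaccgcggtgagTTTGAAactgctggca
Ccnb2: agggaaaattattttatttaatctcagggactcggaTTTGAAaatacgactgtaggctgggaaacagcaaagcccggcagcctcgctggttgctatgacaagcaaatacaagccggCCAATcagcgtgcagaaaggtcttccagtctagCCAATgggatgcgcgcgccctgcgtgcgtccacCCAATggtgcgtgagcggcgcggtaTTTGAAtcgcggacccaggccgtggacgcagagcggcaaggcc
Cdc20: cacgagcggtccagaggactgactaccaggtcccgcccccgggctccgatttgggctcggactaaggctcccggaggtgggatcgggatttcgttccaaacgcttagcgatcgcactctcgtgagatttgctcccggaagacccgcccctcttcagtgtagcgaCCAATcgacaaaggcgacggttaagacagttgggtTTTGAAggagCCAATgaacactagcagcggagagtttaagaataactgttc
Pttg1: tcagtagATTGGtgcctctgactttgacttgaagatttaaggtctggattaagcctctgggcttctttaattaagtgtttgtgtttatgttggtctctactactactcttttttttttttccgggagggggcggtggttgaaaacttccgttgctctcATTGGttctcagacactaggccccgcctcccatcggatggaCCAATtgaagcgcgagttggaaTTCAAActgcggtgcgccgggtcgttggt
Nuf2: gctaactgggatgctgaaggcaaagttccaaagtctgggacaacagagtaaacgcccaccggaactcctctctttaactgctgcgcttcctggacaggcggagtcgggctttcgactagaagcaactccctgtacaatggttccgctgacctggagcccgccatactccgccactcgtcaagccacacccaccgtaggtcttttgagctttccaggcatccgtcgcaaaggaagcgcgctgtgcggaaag

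TTTGAA or TTCGAA occurred in 19 of the 34 genes with a window (55.9%), against 17.4% of all 33469 windows of the table and 11.9% of the 6518 windows of detected genes. The mitosis genes were counted by gene, with a match in any window of the gene, and the other shares by window. CCAAT occurred in 25 of the 34 (73.5%), against 34.0% of all windows and 37.1% of those of detected genes. At least 2 CCAAT boxes together with TTTGAA or TTCGAA were found in 13 (38.2%), against 1.74% of all windows and 1.96% of those of detected genes. In Cdc20, CCAAT began 86 and 41 bases before the start, with TTTGAA at 51. In Cdk1, 3 CCAAT boxes began at 210, 81 and 49 bases, with TTTGAA at 72 and at 16. A match is a string of letters and not a shown binding site, and no binding was measured in these cells.

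Expression was read on 4 one-colour arrays. A gene's level is the log2 processed signal of its brightest probe minus the 75th percentile of that array's sample probes, so 0 stands at that percentile and a step of 1 is a doubling of signal. Probes differ in affinity, so levels are compared between arrays for the same gene and not between genes. The software marks a probe that stands well above background, and a gene with 1 or more probes so marked on each of the 4 arrays is called detected. The order of arrays given for a gene holds for this scaling: replicate 4 was the dimmest, and when arrays were scaled on spike-in controls instead, 29 of the 32 detected genes were lowest there, as were 95.1% of all detected genes. In bulk RNA such as this, fewer cells in mitosis and less messenger RNA per cell cannot be told apart.

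The 4 arrays differed in the brightness of their sample probes. The 75th percentile of processed signal was 734, 757, 595 and 307 on replicates 1 to 4, and probes well above background fell between 31.1% on replicate 4 and 38.8% on replicate 1. The spike-in controls did not follow. Relative to replicate 1 they stood at 0.28 log2 on replicate 3 and -0.07 on replicate 4. The 75th percentile over sample probes stood at -0.38 and -1.38 there. The cause of this difference was not tested. On replicates 3 and 4, areas covering 3.84% and 1.43% of sample spots gave signals well below those of the other arrays, and 5 of the measured genes have spots there: Ccnb2 and Espl1 and Prc1 on replicate 3, and Cdca8 and Ndc80 on replicates 3 and 4. A smaller such area on replicate 2 covered 0.08% of sample spots. It held a dimmer Bub1b probe and no brightest probe of the measured mitosis genes. Of 14 measured macrophage markers, 11 were detected, among them Cd68, Csf1r and Spi1, while Marco, Adgre1 and Cd163 were not. Markers of other cells were mostly not detected: 1 of 11 for lung epithelium (Foxj1), 1 of 7 for fibroblasts (Dcn) and 2 of 6 for T and B cells (Cd3d and Cd4).

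Of the 35 measured mitosis genes, 32 were detected on all 4 exposed cultures, against 44.4% of all measured genes. The exceptions were Cenpf, Hmmr and Ndc80. Cenpf, a large protein of the outer kinetochore, reached that mark on 0 arrays. Hmmr, a microtubule-binding protein of the spindle pole, was well above background on replicate 3 alone. Ndc80, the subunit that gives the kinetochore its grip on microtubules, was well above background on 3 arrays and missed on replicate 3, where its spot lay in the area of low signal. Its level was 1.45 on replicate 1, 1.55 on replicate 2, -2.11 on replicate 3 and 0.55 on replicate 4.

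**Figure D1:**
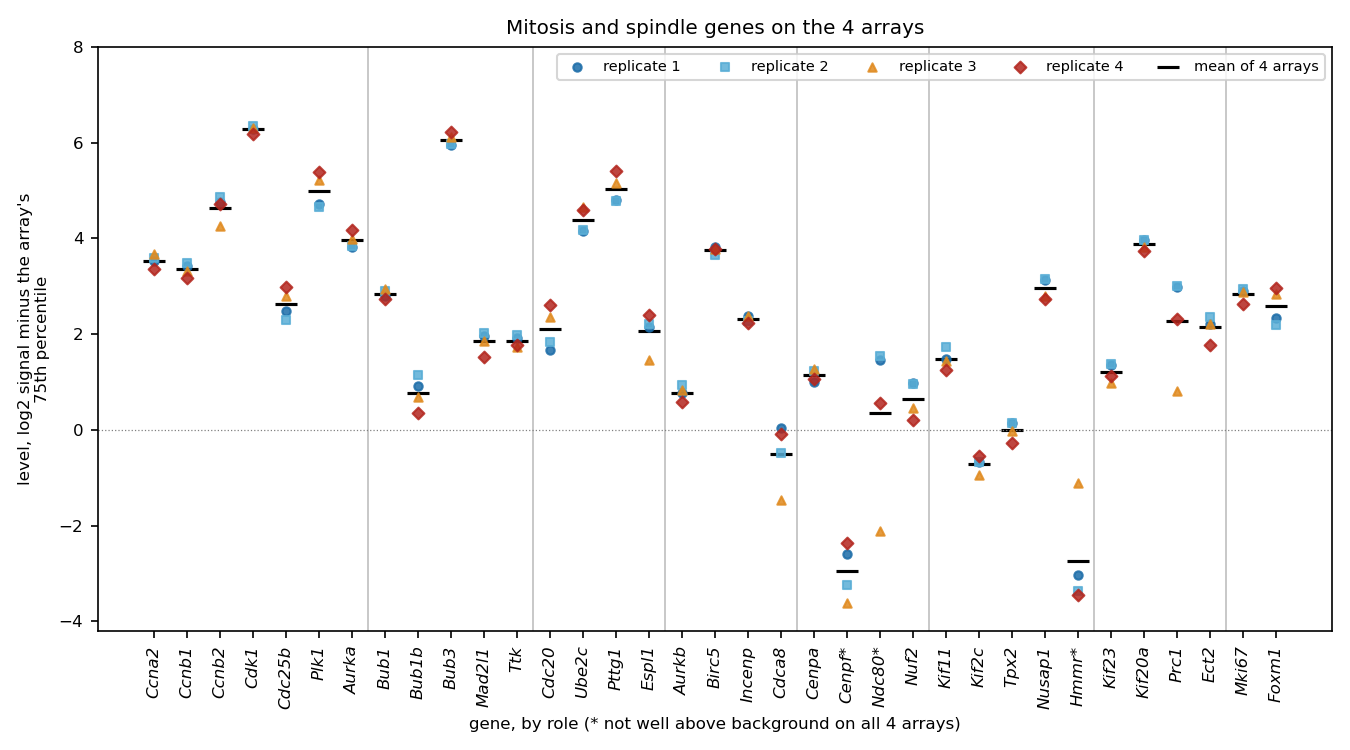
Level of each of the 35 measured mitosis genes (vertical axis, log2 signal minus the array's 75th percentile) on the 4 exposed cultures, with the genes ordered by role and separated by grey lines. Points are single arrays and black bars the mean of 4; the arrays lie within 1 log2 unit of each other for 30 of the 32 detected genes, and an asterisk marks the 3 genes not detected on all arrays.

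Among the genes of mitotic entry, all 7 measured were detected. Cdk1, the kinase that drives entry, read 6.28, 6.36, 6.31 and 6.18 on replicates 1 to 4, a mean of 6.28 ± 0.08 (SD, n = 4). Ccna2, the A-type cyclin that partners Cdk2 and Cdk1, read 3.52, 3.58, 3.68 and 3.36, and Ccnb1, the main B-type partner of Cdk1, read 3.43, 3.48, 3.33 and 3.17. For these 3 genes the highest array exceeded the lowest by 1.13, 1.24 and 1.24 times in scaled signal, and each was lowest on replicate 4. Ccnb2, the other B-type cyclin, read 4.75, 4.87, 4.25 and 4.71, with the low value on replicate 3. With the spots in the low-signal area left out, that array read 4.74 and the SD of Ccnb2 was 0.07 in place of 0.27.

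Plk1, Cdc25b and Aurka took another order on their brightest probes. Plk1, the Polo kinase needed for centrosome maturation and anaphase, read 4.71, 4.65, 5.23 and 5.39, a mean of 4.99 ± 0.37 (SD, n = 4). Cdc25b, a phosphatase that removes the inhibitory phosphates from Cdk1, read 2.48, 2.29, 2.79 and 2.99. Aurka, the kinase of the spindle poles, read 3.83, 3.85, 3.99 and 4.19. In all 3 both of replicates 1 and 2 lay below both of replicates 3 and 4, and the highest array exceeded the lowest by 1.67 times for Plk1, 1.62 times for Cdc25b and 1.28 times for Aurka.

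All 5 checkpoint genes were detected. Bub1, a kinase that gathers checkpoint proteins at kinetochores, read 2.79, 2.91, 2.95 and 2.73. Its partner Bub3, which binds the phosphorylated kinetochore, read 5.94, 5.98, 6.12 and 6.22. Ttk, the kinase also called Mps1 that starts the checkpoint signal, read 1.92, 1.98, 1.74 and 1.77. These 3 varied little, with SDs of 0.10, 0.13 and 0.12. Mad2l1, which binds and holds Cdc20, read 1.97, 2.03, 1.86 and 1.53, and Bub1b, the BubR1 subunit of the same inhibitor, read 0.92, 1.14, 0.69 and 0.35. Both were lowest on replicate 4, by 1.42 times for Mad2l1 and 1.74 times for Bub1b against their highest array.

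With the 75th percentile scaling, the genes of anaphase and mitotic exit had the highest median SD of the 8 roles, 0.35. Cdc20, the activator of the anaphase-promoting complex, read 1.68, 1.83, 2.35 and 2.61, a mean of 2.12 ± 0.43 (SD, n = 4) and 1.90 times from lowest to highest array. Pttg1, the securin that restrains separase, read 4.80, 4.79, 5.15 and 5.41. Ube2c, the ubiquitin-conjugating enzyme that works with the complex, read 4.15, 4.17, 4.65 and 4.60. In each of the 3, replicates 1 and 2 lay together below replicates 3 and 4. Espl1, the separase that cuts cohesin, read 2.14, 2.21, 1.47 and 2.41, where the low value on replicate 3 came from a spot in the low-signal area. Without the low-signal areas its SD was 0.14 (n = 3) in place of 0.41, so the median SD of this role rests in part on that spot. With spike-in scaling instead, the SDs were 0.27 for Cdc20, 0.36 for Pttg1, 0.45 for Ube2c and 0.75 for Espl1. The median SD over the 32 detected genes was then 0.76, so these genes did not have the larger spread there. With normexp the SDs were 0.30 for Cdc20, 0.16 for Pttg1, 0.28 for Ube2c and 0.53 for Espl1. The median over the 32 was 0.28 in that setting.

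The chromosomal passenger complex corrects faulty attachments and steers cytokinesis, and all 4 of its genes were detected. Birc5, or survivin, read 3.82, 3.66, 3.78 and 3.79, and Incenp, the scaffold, read 2.37, 2.27, 2.37 and 2.22. Their SDs, both 0.07, were the smallest of the 32 detected genes. Aurkb, the kinase of the complex, read 0.77, 0.93, 0.84 and 0.58. Cdca8, or borealin, read 0.03, -0.47, -1.46 and -0.09 with an SD of 0.68, and its spot lay in a low-signal area on replicates 3 and 4.

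At the centromere, Cenpa, the histone H3 variant that marks it, read 0.99, 1.24, 1.27 and 1.05. Nuf2, the partner of Ndc80 whose promoter window held none of the letters searched, read 0.97, 0.95, 0.46 and 0.21. Nuf2 was lower on replicates 3 and 4 than on replicates 1 and 2, while the 4 values of Cenpa did not separate these arrays. Among spindle motors and binders, Kif11, the motor that pushes the poles apart, read 1.49, 1.74, 1.44 and 1.26. Nusap1, which bundles microtubules around chromosomes, read 3.13, 3.15, 2.80 and 2.73. Tpx2, which activates Aurka on the spindle, read 0.14, 0.14, -0.01 and -0.27, and Kif2c, which takes microtubules apart at centromeres, read -0.68, -0.66, -0.95 and -0.54. The first 3 of these 4 were lowest on replicate 4 and Kif2c was highest there.

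In the midzone, where the cell is cut in 2, Kif20a, a motor that carries the passenger complex, read 3.97, 3.97, 3.83 and 3.74. Kif23, the motor subunit of centralspindlin, read 1.36, 1.37, 0.98 and 1.14, and Ect2, the exchange factor that switches on RhoA at the furrow, read 2.22, 2.36, 2.22 and 1.77. Prc1, the bundler of midzone microtubules, read 2.98, 3.00, 0.82 and 2.31, a spread of 4.54 times. The probe behind that value lay in the low-signal area on replicate 3, and a second Prc1 probe outside it read 1.80, 1.85, 1.82 and 1.64.

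Mki67, the Ki-67 protein that coats mitotic chromosomes and marks proliferating cells, read 2.91, 2.93, 2.88 and 2.63 on its brightest probe. Foxm1, the transcription factor of G2 and M phase genes, read 2.34, 2.19, 2.84 and 2.96. The genes given above did not all share the order of Foxm1. On their brightest probes Cdc25b, Plk1, Aurka, Bub3, Cdc20, Pttg1 and Ube2c also had replicates 1 and 2 below replicates 3 and 4. Ccnb1, Aurkb and Kif20a were among the 15 of the 32 detected genes that were lowest on replicate 4. A link to Foxm1 was not tested.

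Probes of the same gene did not always share the order of the arrays. Of the 12 genes with several probes, 8 had more than 1 probe detected on all 4 arrays. The dimmer probes of Espl1, at a mean of -4.15, and of Bub1b, at -2.96, were well above background on 0 arrays. Detection of these genes thus rested on 1 probe each. The dimmest Mad2l1 probe, at -3.61, was also well above background on 0 arrays. The 2 dimmer Ndc80 probes reached that mark on 1 and 0 arrays. The second Foxm1 probe read 0.24, 0.42, 0.90 and 0.94, and the second Ube2c probe read 3.26, 3.30, 3.76 and 3.87, both again with replicates 1 and 2 below 3 and 4. A second Mad2l1 probe read 2.08, 2.17, 1.72 and 1.23, again lowest on replicate 4. The second Aurka probe, well above background on 3 arrays, read -1.37, -1.31, -1.56 and -2.09 and so ran against the brightest one. A second Cenpa probe read -0.28, -0.34, -0.44 and -0.10, highest on replicate 4, where the brightest one was not. The probes of Mki67 did not share an order: 2 were lowest on replicate 4, and the other 2, at -0.68, -0.55, -0.49 and -0.43 and at -0.56, -0.68, -0.55 and 0.05, were highest there. A second Ccnb2 probe, outside the low-signal area, read 2.90, 3.09, 2.04 and 2.37, lowest on replicate 3. The brightest Ccnb2 probe read 4.75, 4.87, 4.74 and 4.70 with its spots in that area left out, so the 2 probes differed on replicate 3.

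**Figure D2:**
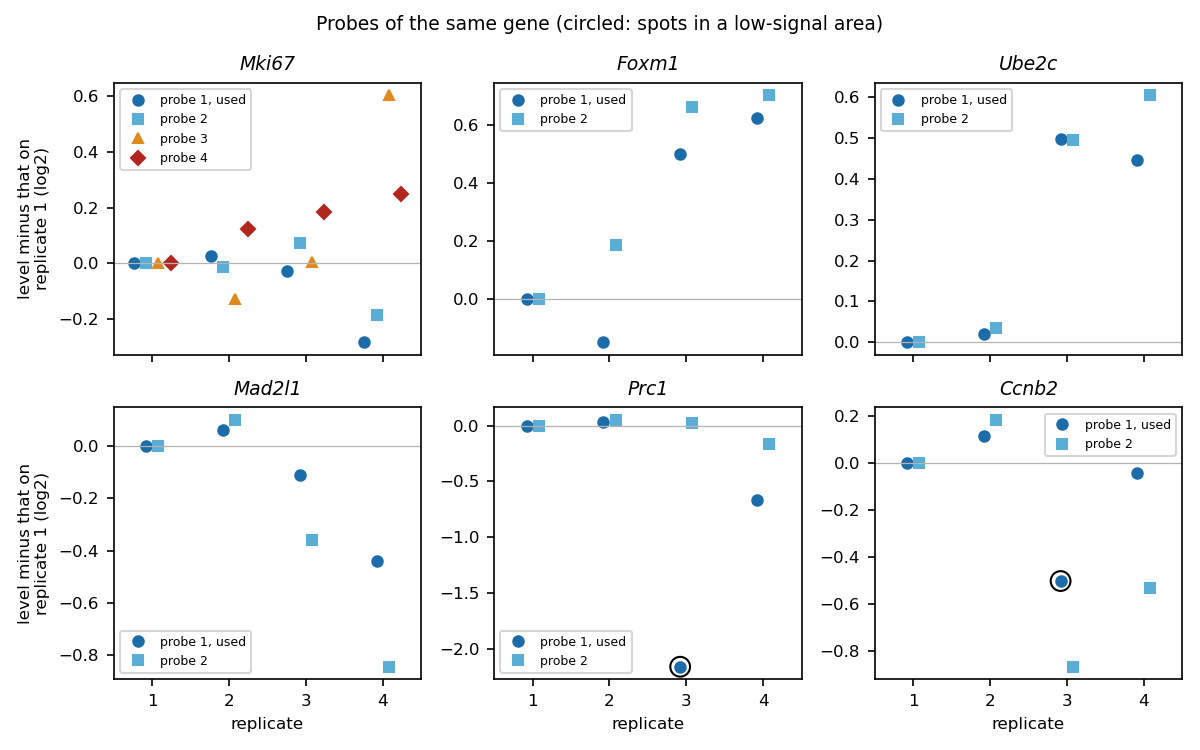
Level of each detected probe minus its level on replicate 1 (vertical axis, log2) on the 4 exposed cultures, for 6 genes with several detected probes; points are single arrays and circles mark spots in a low-signal area. Both Foxm1 and both Ube2c probes lie higher on replicates 3 and 4, whereas the 4 Mki67 probes separate on replicate 4 and the low Prc1 value on replicate 3 appears in 1 of its probes.

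For 5 genes the brightest probe was spotted 10 times on each array, which gives the scatter within an array beside the spread between arrays. The spread between arrays can hold differences in labelling, hybridization and brightness as well as between cultures. It is taken over means of the spots, which scatter less than single spots do. A low ratio of array spread to spot scatter therefore does not place the arrays within spot scatter. The median SD between spots of an array was 0.07 for Plk1 and 0.07 for Pttg1, against SDs between arrays of 0.37 and 0.30. For Cdk1 the spots varied by 0.05 and the arrays by 0.08, for Bub3 by 0.05 and 0.13, and for Mki67 by 0.08 and 0.14. In this scaling the difference between arrays was thus more than 4 times the spot scatter for Plk1 and Pttg1. It was less than 3 times for the other 3. That contrast depended on the processing. With normexp the array SDs were 0.195 for Plk1 and 0.156 for Pttg1, against 0.339 for Cdk1, 0.179 for Bub3 and 0.326 for Mki67. With spike-in scaling they were 0.313 and 0.364, against 0.726, 0.537 and 0.794. With quantile normalization they were 0.265 and 0.193, against 0.186, 0.024 and 0.189. Plk1 and Pttg1 kept the larger SDs without the low-signal areas.

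Taken over the 32 detected genes, the median SD between the 4 cultures was 0.19, against 0.25 over all 7363 detected genes. This order turned with the processing: it was 0.28 against 0.23 with normexp and 0.76 against 0.59 with spike-in scaling. An SD over 0.5 was reached by 2 of the 32, Cdca8 and Prc1, against 11.6% of detected genes, and the same 2 were the only ones with a range over 1 log2 unit, against 13.9%; both have a spot in a low-signal area. The 28 detected genes with no such spot had a median SD of 0.18.

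As a group the mitosis genes stood slightly higher on replicates 1 and 2 and slightly lower on replicate 4, set against the other genes of the same arrays. Taking each gene's deviation from its own mean of 4 arrays, the median over the 32 genes was 0.06, 0.09, 0.02 and -0.08 on replicates 1 to 4, and over all detected genes -0.07, -0.07, 0.06 and 0.10. The mitosis genes thus stood 0.13 and 0.16 above all detected genes on replicates 1 and 2, and 0.03 and 0.18 below them on replicates 3 and 4. On replicate 1, 13 of the 32 lay below their own mean, against 61.3% of detected genes, and on replicate 2, 10 did, against 58.1%. On replicate 3 the count was 14, against 38.1%, and on replicate 4 it was 18, against 40.4%. These counts have no test, and all of them rest on the same 32 genes and 4 arrays. The lowest value of a gene fell on replicate 1 for 5 of the 32 (22% of detected genes), on replicate 2 for 5 (35.2%), on replicate 3 for 7 (13.1%) and on replicate 4 for 15 (29.6%). The highest fell on replicate 1 for 6 (10.6%), on replicate 2 for 13 (26.4%), on replicate 3 for 4 (16.5%) and on replicate 4 for 9 (46.4%). The 9 include Cdc20, Plk1, Pttg1, Foxm1 and Cdc25b; their number was 1 with the normexp background correction and 0 with spike-in scaling, against 13.2% and 0.177% of all detected genes in those settings. Replicate 4 was also the dimmest array, with the fewest probes well above background, and the part of this in the difference was not tested.

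Spike-in scaling moved the median deviation of all detected genes on replicate 4 from 0.10 to -0.75 and that of the mitosis genes to -0.93. It shifts every gene of an array alike, so it cannot change the difference of -0.18 between them. That difference was -0.14 with normexp and -0.13 after quantile normalization, both of which could change it.

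Within the group, 8 genes lay below the group's median deviation on replicates 1 and 2 and above it on replicates 3 and 4: Cdc20, Cdc25b, Plk1, Aurka, Bub3, Pttg1, Foxm1 and Ube2c. On replicate 4 they stood above it by 0.57 for Cdc20, 0.48 for Plk1, 0.46 for Foxm1, 0.45 for Pttg1, 0.44 for Cdc25b, 0.31 for Aurka, 0.29 for Ube2c and 0.24 for Bub3. Ccnb1, Bub1b, Mad2l1, Nuf2, Tpx2 and Nusap1, 6 genes in all, did the reverse, with Nuf2 0.35 and Bub1b 0.34 below the median on replicate 4. With normexp, with quantile normalization and without the low-signal areas, 7 of the 8 (all but Aurka) kept their pattern in all 3 settings. So did 4 of the 6 (Ccnb1, Mad2l1, Nuf2 and Nusap1). The pattern was not checked with the other choices of probe or detection or with replicates left out. These genes were picked by their values on these arrays, so the pattern is a description.

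**Figure D3:**
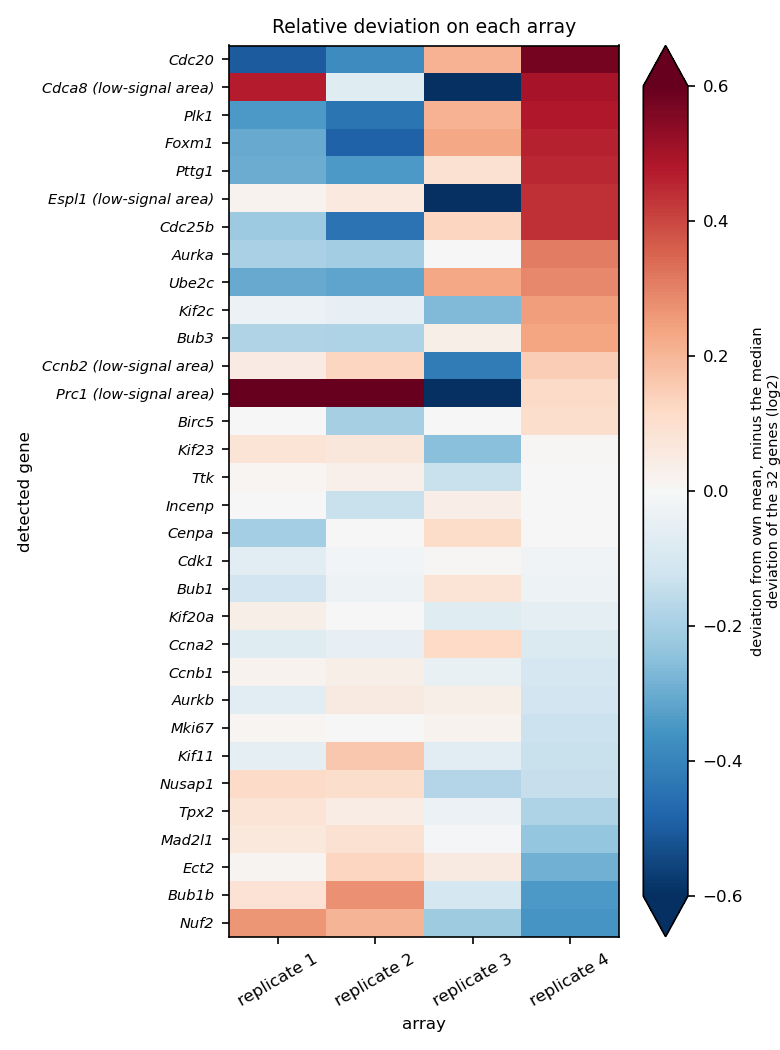
Deviation of each of the 32 detected mitosis genes from its own mean, minus the median deviation of the 32 on that array (colour, log2), on the 4 exposed cultures; genes are sorted by replicate 4 and values beyond 0.6 share the end colour. Cdc20, Plk1, Foxm1, Pttg1 and Cdc25b go from below the median on replicates 1 and 2 to above it on 3 and 4, and Nuf2 and Bub1b go the other way; labelled rows have a spot in a low-signal area.

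The same order of arrays was common among other genes. Set against the median deviation of all detected genes, 7 of the 32 mitosis genes (21.9%) lay below it on replicates 1 and 2 and above it on 3 and 4, against 35.1% of detected genes. The reverse held for 14 of the 32 (43.8%), against 34.2% of detected genes; the 14 include Cdk1, Ccnb1, Mki67, Kif11 and Kif20a. Windows with both letter strings occurred on either side, in Cdc20 and Pttg1 on the first and in Cdk1 and Ccnb2 on the second.

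The other genes of the pathway were mostly detected too. Over 7 lists with 194 genes, 158 were measured and 129 were detected (81.6%). Among 16 measured subunits of cohesin and condensin, the rings that hold and compact chromosomes, 15 were detected, all but Pds5a. Of the anaphase-promoting complex and its partners, 14 of 16 were detected, with Fbxo5, its interphase inhibitor, well above background on 0 arrays and Cdc27 on 3. Of the kinetochore and centromere list 21 of 28 were detected; the 7 others were Cenpc, Cenpi, Cenpk, Cenpo, Knl1, Sgo2 and Ska3. Of spindle, centrosome and cytokinesis genes 21 of 27 were detected, without Cit, Gtse1, Haus3, Kif18a, Kif20b and Kif2a. Of mitotic entry and its transcription 15 of 19 were detected, without E2f7, Mastl, Pbk and Rbl1. DNA replication and S phase had 33 of 39 detected, without Ccne2, Mcm10, Orc1, Pola1, Pola2 and Pole, and the G1 cyclins and CDK inhibitors 10 of 13, without Cdk6, Cdkn1c and Cdkn2a.

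On replicate 4 the quartiles of cohesin and condensin spanned -0.25 to -0.12. This range lay below those of mitotic entry and its transcription (-0.08 to 0.30) and of the G1 cyclins and CDK inhibitors (-0.03 to 0.20). The quartile ranges of the other lists overlapped each other on this array, and no difference between lists was tested. The median deviation there was -0.17 for cohesin and condensin and -0.14 for the kinetochore and centromere list, and it was -0.00 for the anaphase-promoting complex, 0.00 for mitotic entry and its transcription and 0.01 for spindle, centrosome and cytokinesis genes. DNA replication genes stood at -0.01 and the G1 cyclins and CDK inhibitors at 0.09, beside 0.10 for all detected genes and -0.08 for the mitosis genes.

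**Figure D4:**
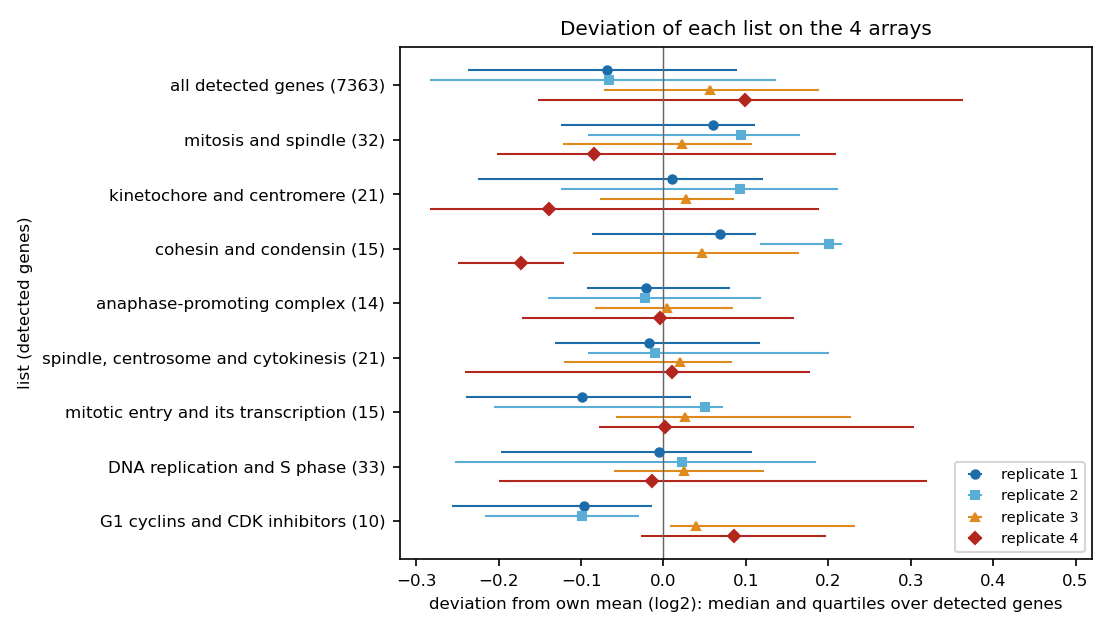
Deviation of genes from their own mean of 4 arrays (horizontal axis, log2) for all detected genes, the mitosis genes and 7 related lists; points are medians over the detected genes of a list (number in parentheses) and lines span the quartiles. On replicate 4 the median of the mitosis genes is -0.08 and that of all detected genes 0.10.

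The genes with the largest SD of each list were picked by their spread on these arrays, so their order of arrays is a description, and replicate 4 was highest for 46.4% of all detected genes. Pkmyt1, the kinase that keeps Cdk1 inhibited, read 2.56, 2.55, 3.31 and 3.89. Mybl2, the B-Myb factor that works with Foxm1 in late cell cycle transcription, read 1.86, 1.65, 2.47 and 2.66. Cenpm, a centromere protein, read 4.24, 4.11, 4.86 and 5.07. In all 3, replicates 1 and 2 lay below replicates 3 and 4. So did Ncaph2, a condensin subunit, at 4.01, 3.93, 4.51 and 4.78, and Anapc2, the cullin of the anaphase-promoting complex, at 4.02, 3.91, 4.51 and 4.77. Cdkn1a, the CDK inhibitor p21, read 5.23, 5.12, 5.92 and 6.41, and Pold1, the catalytic subunit of DNA polymerase delta, read 2.15, 2.05, 3.12 and 3.45. Esco1, which acetylates cohesin, went the other way on replicate 4, at -0.26, -0.14, -0.17 and -0.87. Haus1, an augmin subunit with spots in a low-signal area on replicates 3 and 4, read 1.07, 1.18, -0.62 and -0.25. Anapc11, Troap, Cdt1 and Ccnd3, also named by their SD, were each highest on replicate 4. Anapc11 has a spot in a low-signal area on replicate 3.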

How the data were processed

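Gene expression was measured on 4 one-colour Agilent arrays of 1 slide and 1 scan, 1 per exposed culture. The deposited files hold spot intensity values on a linear scale, read per the file headers with Agilent Feature Extraction 11.0.1.1, and the processed intensity is background-corrected and spatially detrended within an array and not normalized between arrays. From these, log2 of the processed signal was averaged over the spots of a probe, without non-uniform or population outlier spots, and each array's 75th percentile was subtracted. No sample spot was saturated. Of 45598 sample probes, 21109 were named by accession through a RefSeq gene table of GRCr8, and 24489 stayed unnamed. A gene took its brightest probe and was detected when, on all 4 arrays, a probe had over 50% of its spots well above background. A low-signal area is a block of 16 by 8 spots whose detected spots had a median over 0.5 log2 below that of the other 3 arrays.

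With 1 group there is no contrast, and no test was made: counts, medians and SDs describe these 4 arrays, whose number limits the precision. The members and lists were chosen with earlier results of these data known. Named genes are all 40 members and, of each related list, the measured genes not detected on all arrays (at most 8, in alphabetical order) and the 2 detected genes with the largest SD. Of these, 1 gene is not reported here. The related lists were kinetochore and centromere, cohesin and condensin, anaphase-promoting complex, spindle, centrosome and cytokinesis, mitotic entry and its transcription, DNA replication and S phase, and G1 cyclins and CDK inhibitors; the marker lists were macrophage, lung epithelium, fibroblast, and T and B cell. Alternatives covered the background correction (normexp, offset 50, limma 3.58.1 in R 4.3.3), the scaling, the choice of probe, detection, the low-signal areas and each replicate left out. Python 3.11.15 with numpy 2.4.6 and pandas 2.3.3 was used. The group medians were checked on simulated data with a known added shift and equal noise for all genes. These simulated data held no dim array and no low-signal area, so the check does not cover them.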

Additional observations from a re-analysis of the deposited data

How the results depend on the processing

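The count of 32 detected mitosis genes ran from 28 (every probe of a gene detected) to 34 (the software's positive and significant mark), and from 32 to 33 with each replicate left out. The median level of the detected genes, 2.45, was 1.79 with normexp background, -1.66 on the 75th percentile of detected probes, whose higher reference lowers every level, and 1.94 with the median over a gene's probes in place of the brightest. Scaling on the spike-in controls, which keeps the arrays' difference in brightness, raised the median SD from 0.19 to 0.76 (all detected genes: 0.25 to 0.59) and gave median deviations of 0.52, 0.67 and -0.93 on replicates 1, 2 and 4; on replicate 4 it put 32 genes below their own mean in place of 18, 29 lowest in place of 15 (95.1% of all detected genes) and 0 highest in place of 9 (0.177% of them). With normexp, 1 gene was highest there (13.2% of all detected genes), and the median SD was 0.28 against 0.23 for all; the cause was not tested. With each replicate left out, the median SD ran from 0.16 to 0.22 and the median deviation on replicate 4 from -0.09 to -0.05. No result changed sign on replicates 1, 2 and 4, while the small median deviation on replicate 3 lay between -0.17 and 0.06. Relative to all detected genes, the mitosis genes stood below on replicate 4 in every setting tried, with differences of -0.13 to -0.49, the last with genes below background kept; scaling on spike-ins or on detected probes cannot change this difference. The choice of brightest probe without a spot in a low-signal area, added after seeing the data, gave a median SD of 0.18. Spots near background on the dim array of replicate 4 limit the genes that can be called detected. No paired analysis was possible because the single group has no other group to pair with.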
